A study of Arabidopsis thaliana with 12 samples.

Results

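The transcripts described here are encoded by the plastid and mitochondrial genomes of Arabidopsis thaliana and were measured in roots on 12 one-colour arrays. A member is a probe set for which the platform annotation lists exactly 1 gene and that gene lies on an organelle genome, by its RefSeq gene ID or its organelle symbol. The rule used no measured value, though the members were chosen with earlier results of these data known. It found 92 of the 22746 probe sets tested, for 85 of the 13356 genes with a probe set of their own. Of these, 69 report 69 plastid genes, and 23 report 16 mitochondrial genes. The mitochondrial nad1, whose exons are spread over the genome, has 7 of the 23 probe sets, and nad5 has 2, so these probe sets share a gene and are not independent. Among the plastid genes, 20 carry a photosystem symbol (5 psa and 15 psb genes) and are called photosystem genes here, and 49 carry other symbols.

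The wild type was the Col-0 ecotype carrying aequorin, a calcium reporter protein, and the mutant was dorn1-1, which lacks a working receptor for extracellular ATP. The labels do not say whether dorn1-1 carries aequorin. Seedlings were grown for 5 days on sucrose medium, 120 of them were pooled for each replicate, and the pool stood overnight in the dark in 2 mM MES and 10 mM CaCl2. Roots were frozen 30 min after MES buffer or ATP was given. The 4 groups were wild type in buffer, wild type in ATP, dorn1-1 in buffer and dorn1-1 in ATP, with 3 biological replicates each. The ATP dose reads 100 mM in the sample titles and 100 µM in the protocol, so it is not settled here. All values below are log2 values, and a difference of 1 is 2-fold. Each standard error (SE) comes from a fit in which all 4 groups share the estimate of the spread, so it is not that of the groups compared alone.

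Plant plastids and mitochondria keep small genomes that encode core subunits of photosynthesis and respiration together with part of the machinery that expresses them, while most organelle proteins come from nuclear genes. Plastid genes are read by a bacterial-type polymerase, whose core the plastid itself encodes, and by a nuclear-encoded polymerase, and many lie in groups that are transcribed together. Roots hold non-green plastids, in which photosynthesis transcripts are present at lower levels than in leaves. Organelle messages mostly lack stable poly(A) tails, and the labels do not state the primer used to copy the RNA. The RNA was treated with DNase before labelling, per the labels.

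The plastid transcripts differed widely between replicates, the mitochondrial ones less. The median standard deviation within a group was 0.55 for the plastid probe sets, 0.22 for the mitochondrial ones and 0.18 for all 22746. The mean of the 69 plastid probe sets, taken relative to the mean of the wild-type buffer arrays, was -0.02, 0.23 and -0.21 in wild-type buffer and 1.00, 0.30 and 0.64 in wild-type ATP. It was 0.97, -0.50 and -0.19 in dorn1-1 buffer and 0.55, -0.21 and 0.29 in dorn1-1 ATP. Thus the 3 wild-type ATP arrays lay above the 3 wild-type buffer arrays, by a narrow margin for replicate 2, whereas the dorn1-1 groups overlapped.

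The dorn1-1 buffer group stood apart in this respect. All 69 plastid probe sets were higher in its replicate 1 than in its replicate 2, with a median gap of 1.45, while 2 of the 23 mitochondrial probe sets were. The mitochondrial mean ran the other way in these arrays, at -0.02 in replicate 1, 0.51 in replicate 2 and 0.18 in replicate 3. For the comparisons that use this group, medians, counts and the genes named among the members are therefore also given without replicate 1 or without replicate 2 where they move. Such values are not given for the nuclear gene lists.

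Nuclear photosynthesis genes had a similar order of arrays. Of 61 names on that marker list, which also marks shoot tissue, 10 matched a probe set with 1 listed gene (RCA, PRK, LHCB4.1, LHCB4.2, LHCB4.3, PSAE-1, PSAN, PSBW, PSBY and SBPASE). Their mean level was 9.26 to 10.1 in wild-type buffer, 10.5 to 11.5 in wild-type ATP, 8.55 to 11.4 in dorn1-1 buffer and 10.1 to 10.8 in dorn1-1 ATP. Relative to wild-type buffer this mean was 1.63 in dorn1-1 buffer replicate 1 and -1.24 in replicate 2, the same order as for the plastid genes. RMA values have no zero, so none of these markers can be called absent. The part of this marker list in the plastid result was not tested, and in bulk samples fewer cells of a type and less RNA per cell cannot be told apart. Of 26 root marker names, 3 were matched, and the root hair expansin EXPA7 lay between 5.84 and 6.99 over the 12 arrays. In the wild-type response EXPA7, EXPA18 and XTH18 differed by -0.44, -0.91 and 0.82, so these 3 markers did not move together. On all gene lists here, names were matched only to probe sets with 1 listed gene. A name without a match may therefore still be on the array.

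**Figure D1:**
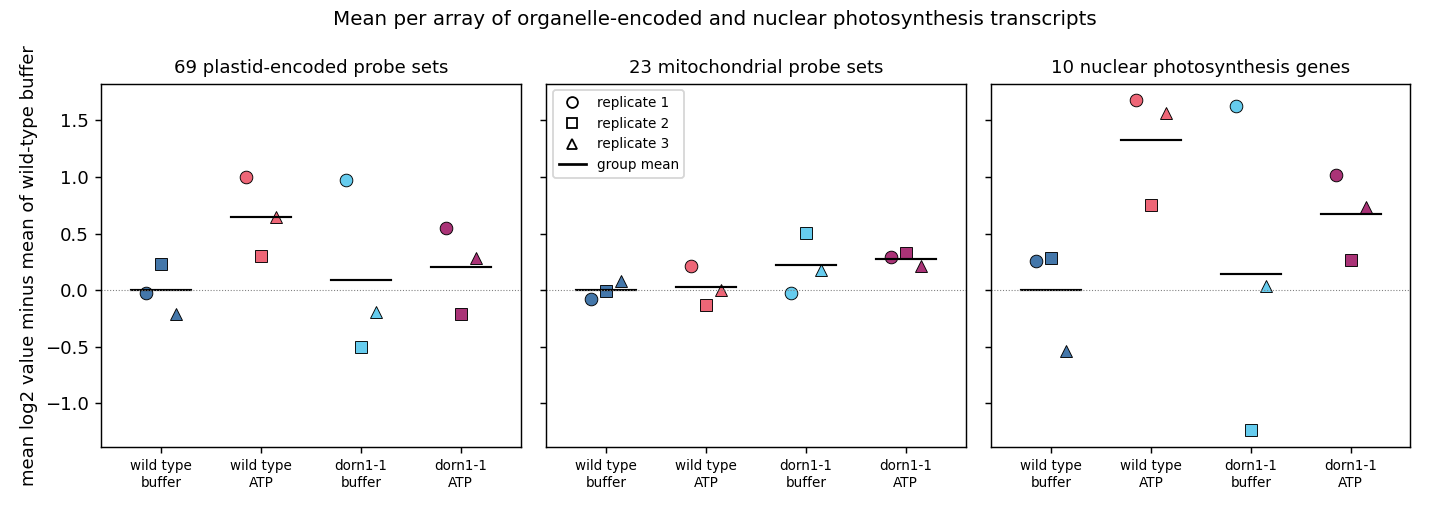
Mean log2 value per array of the 69 plastid probe sets, the 23 mitochondrial probe sets and 10 nuclear photosynthesis genes, minus the mean of the 3 wild-type buffer arrays. Each point is 1 array and the line is the group mean. Plastid and nuclear photosynthesis means spread widely in dorn1-1 buffer, from 0.97 to -0.50 and from 1.63 to -1.24, and the mitochondrial means stay between -0.13 and 0.51.

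The first comparison asked how organelle transcripts stood in wild-type roots 30 min after ATP. Plastid transcripts had higher means in ATP for 66 of 69 genes, with a median log2 difference of 0.66, while the mitochondrial median was 0.0019 and the median of all probe sets was -0.03. No member passed the limma test at a Benjamini-Hochberg adjusted p of 0.05, where 0.664% of all probe sets did. At an unadjusted p under 0.05 there were 20 plastid and 2 mitochondrial members, all higher in ATP, against 22.2% of all probe sets in either direction and 9.8% higher. A log2 difference above 0, which 66 of the 69 plastid genes had, was found for 44.8% of all probe sets. The 3 ATP arrays lay above the 3 buffer arrays for 36 of 69 plastid and 3 of 23 mitochondrial probe sets, against 13.9% of all, and below for none of the 92, against 19.2%. A difference of over 2-fold was reached by 17 plastid genes and no mitochondrial probe set, against 2.91% of all probe sets.

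This result depends on which arrays set the shared estimate of the spread. When dorn1-1 buffer replicate 1, which is not part of the comparison, was left out of the fit, 16 plastid genes and 1 mitochondrial gene passed, all higher in ATP, and 10.2% of all probe sets then passed. The plastid genes were psaA, psbA, psbB, psbE, psbH, petB, petN, ndhD, ndhE, atpF, atpH, rbcL, rpoC1, rps2, ycf4 and cemA, and the mitochondrial gene was ccb206. With both dorn1-1 buffer replicates 1 and 2 left out, 17 members again passed, and 8.96% of all probe sets.

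All 20 photosystem genes had higher means in wild-type ATP than in buffer, with a median difference of 0.83. The psbA transcript, which encodes the D1 reaction centre protein of photosystem II, stood at 8.92, 9.89 and 9.30 in wild-type buffer and at 11.10, 10.20 and 10.78 in ATP. The groups did not overlap, and the difference was 1.32 ± 0.47 (SE, n = 3 each), or 2.50-fold, with a limma adjusted p of 0.147. For psbD, the partner reaction centre protein D2, the buffer values were 5.70, 6.58 and 5.79 and the ATP values 7.86, 6.74 and 7.53. Here buffer replicate 2 came close to ATP replicate 2, and the difference was 1.35 ± 0.53 (SE, n = 3 each, limma adjusted p = 0.174). At the other end of photosystem II, psbI, a small subunit, differed by 0.05 ± 0.28 (SE), with 10.78, 11.30 and 10.20 in buffer and 10.67, 11.20 and 10.55 in ATP, so its groups overlapped fully.

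In photosystem I, psaA and psaB encode the reaction centre pair. The psaA values were 5.31, 5.30 and 4.97 in wild-type buffer and 6.07, 5.50 and 6.09 in ATP, a difference of 0.69 ± 0.19 (SE, n = 3 each, limma adjusted p = 0.0958). All ATP arrays lay above all buffer arrays for psaA, but those of its neighbour psaB overlapped, at a difference of 0.63 ± 0.31 (SE). The iron-sulphur subunit psaC differed by 0.84 ± 0.39 with overlapping groups, and the small subunit psaJ by 1.31 ± 0.59 without overlap (SE, n = 3 each).

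The NDH complex, which passes electrons around photosystem I, had the highest class median, at 1.13 over 10 genes. Its member ndhJ had the largest difference of all 92 probe sets, 1.74 ± 0.79 (SE, n = 3 each), or 3.35-fold, with a limma adjusted p of 0.219. The values of ndhJ were 8.09, 8.74 and 7.13 in wild-type buffer and 10.63, 8.83 and 9.73 in ATP. The groups were apart only by the small gap between buffer replicate 2 and ATP replicate 2, and the standard error, which all 4 groups set, was large beside the difference. Without dorn1-1 buffer replicate 1 in the fit it was 0.58 for ndhJ. Its neighbour ndhK differed by 1.58 ± 0.69, and ndhE by 1.5 ± 0.51. The ndhF probe set differed by 0.10 ± 0.14, with buffer values of 2.19, 2.66 and 2.27. At such low values arrays compress differences, so the small value for ndhF cannot be set against those of ndhJ, ndhK or ndhE. The ndhH probe set was dim too, at 2.97, 2.95 and 2.96 in wild-type buffer. Its difference of 0.51 ± 0.15 (SE) carries the same limit.

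The remaining photosynthesis classes had medians of 0.69 for the 6 genes of the cytochrome b6f complex and 0.57 for the 6 genes of the ATP synthase. The small b6f subunit petN stood at 6.07, 6.25 and 5.65 in wild-type buffer and at 7.28, 6.92 and 7.16 in ATP. This gave a difference of 1.13 ± 0.34 (SE, n = 3 each, limma adjusted p = 0.112) with every ATP array above every buffer array. The b6f core genes petB, for cytochrome b6, and petD, for subunit IV, differed by 0.63 ± 0.25 and 0.43 ± 0.22 (SE). In the ATP synthase, atpH, which encodes the membrane ring subunit, differed by 1.06 ± 0.50, and the catalytic head genes atpA and atpB by 0.19 ± 0.47 and 0.25 ± 0.30.

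The large subunit of rubisco, the carbon-fixing enzyme, is encoded by rbcL. Its values were 9.25, 8.82 and 8.27 in wild-type buffer and 9.61, 9.36 and 9.84 in ATP. The groups did not overlap, and the difference was 0.82 ± 0.45 (SE, n = 3 each, limma adjusted p = 0.309).

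Genes of the plastid's own expression machinery had lower medians, at 0.18 for the 4 genes of the RNA polymerase and 0.17 for the 15 ribosomal protein genes. The rpoC1 transcript stood at 7.86, 7.74 and 8.21 in wild-type buffer and at 9.04, 8.69 and 8.98 in ATP, with a tight spread in both groups. Its difference of 0.96 ± 0.23 (SE, n = 3 each) had the lowest adjusted p of the members, 0.0685 by limma. The adjacent rpoB, for the beta subunit, differed by 0.08 ± 0.15, at 3.44, 3.03 and 3.06 in buffer and 3.41, 3.21 and 3.15 in ATP. These values are low too, so the small difference of rpoB cannot be set against that of rpoC1. The alpha subunit gene rpoA differed by 0.05 ± 0.28.

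Among the ribosomal protein genes the differences ran from -0.50 ± 0.48 for rpl32 to 0.74 ± 0.43 for rpl33 (SE, n = 3 each). The rpl32 values were 9.36, 9.80 and 9.23 in wild-type buffer and 9.71, 8.42 and 8.76 in ATP, and its groups overlapped. Only rpl32, rpl14 and rps3 had a lower mean in ATP among the 69 plastid genes, and the latter pair lay within 0.06 of 0.

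The last 7 plastid genes have mixed roles and a median of 0.52. The photosystem I assembly factor ycf4 stood at 7.03, 6.78 and 6.65 in wild-type buffer and at 8.48, 7.87 and 8.31 in ATP. Its difference was 1.4 ± 0.36 (SE, n = 3 each), or 2.64-fold, with a limma adjusted p of 0.0845 and a gap between the groups wider than either group's range. A second assembly factor, ycf3, differed by 0.13 ± 0.35. The protease subunit clpP, the fatty acid synthesis gene accD and the intron maturase matK are not photosynthesis genes, and they differed by 0.38 ± 0.21, 0.18 ± 0.14 and 0.52 ± 0.35 (SE).

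**Figure D2:**
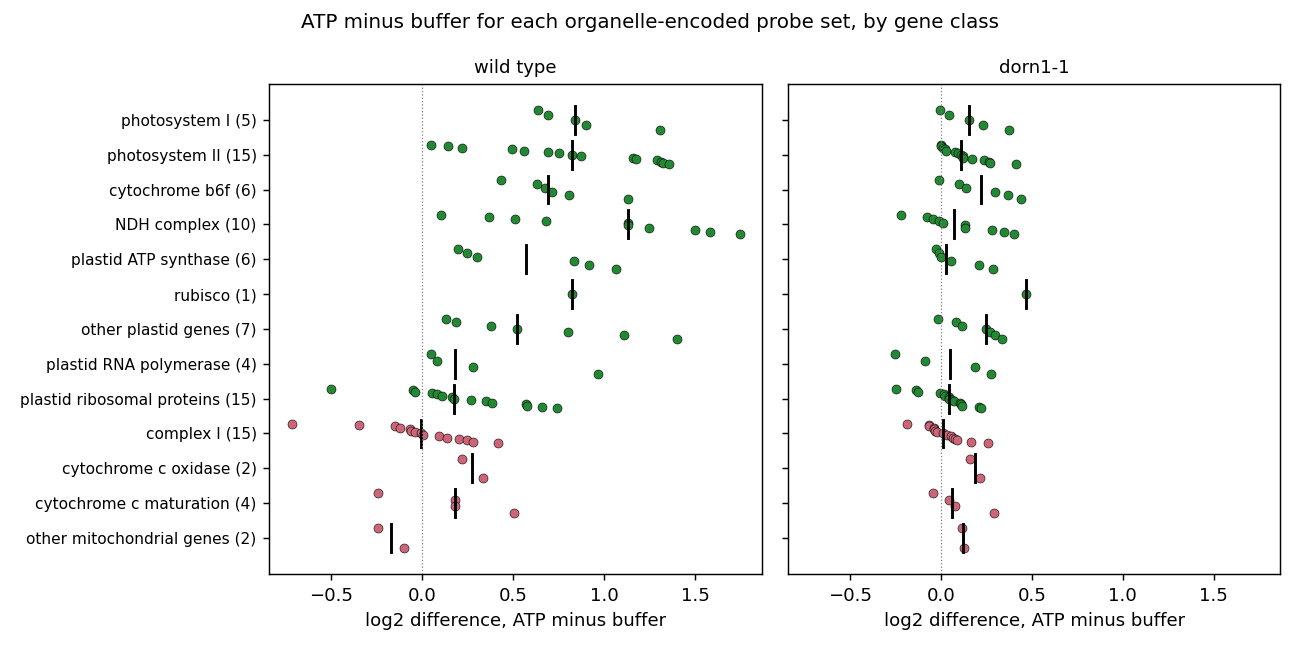
Log2 difference, ATP minus buffer, of each organelle probe set in the wild type (left) and in dorn1-1 (right), by gene class, with the number of probe sets in brackets. Points are probe sets, plastid in green and mitochondrial in red, and bars are class medians. In the wild type the medians reach 1.13 for the NDH complex and lie at 0.17 for ribosomal proteins and -0.0079 for mitochondrial complex I, and in dorn1-1 all points lie between -0.25 and 0.47.

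**Figure D3:**
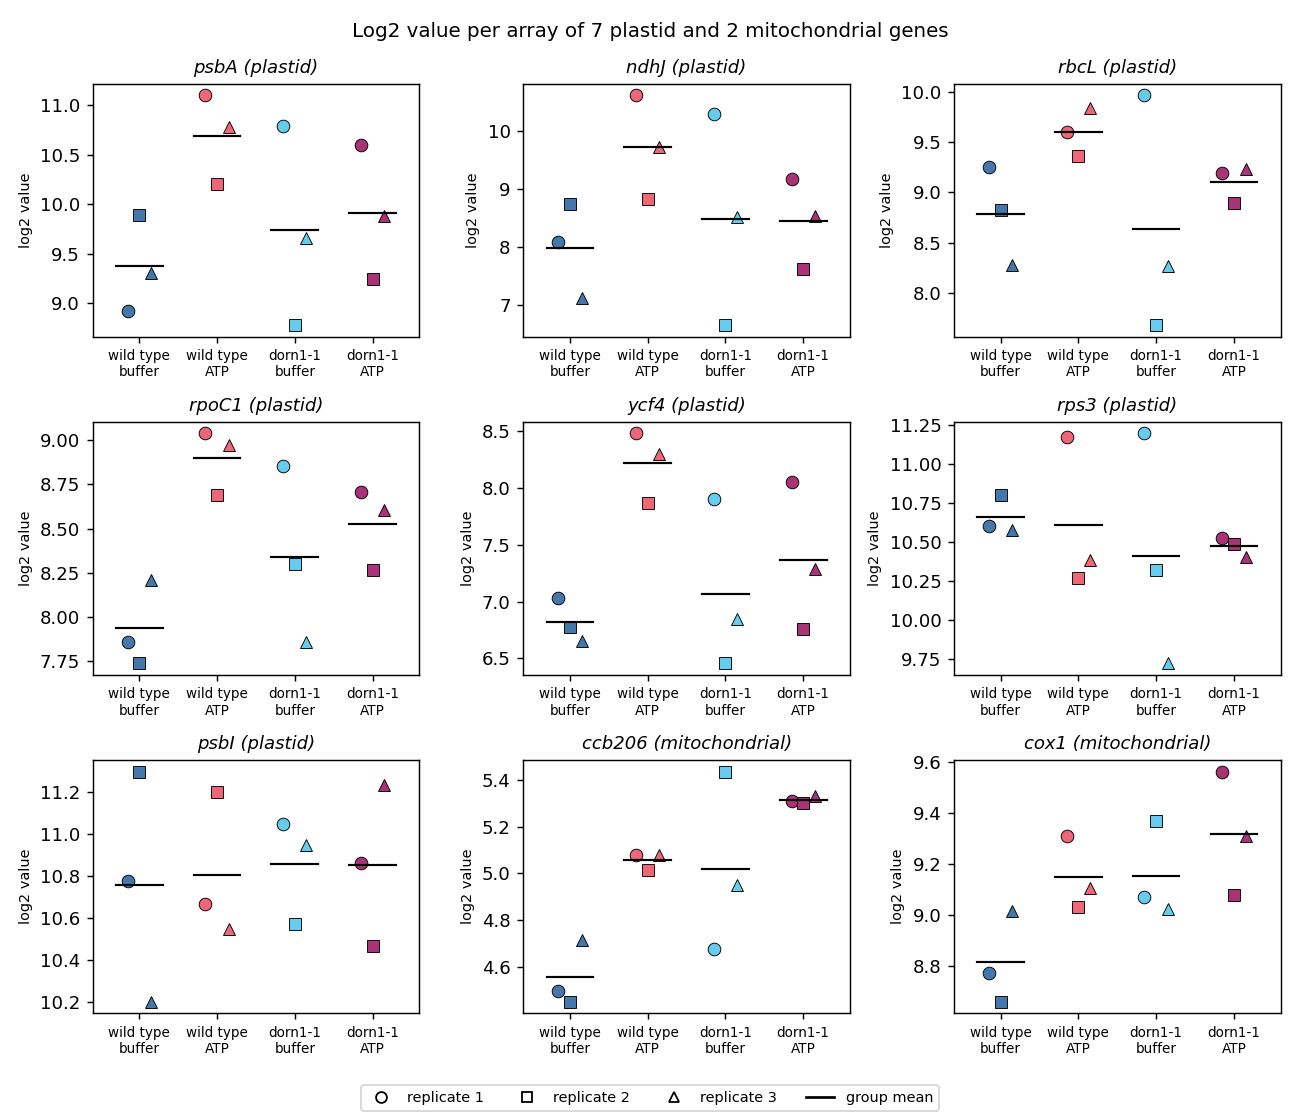
Log2 value per array of 7 plastid and 2 mitochondrial genes in the 4 groups. Marker shape gives the replicate number and lines are group means, and each panel has its own axis. For psbA, ndhJ, rbcL, rpoC1, ycf4, ccb206 and cox1 the wild-type ATP arrays lie above the wild-type buffer arrays, and for rps3 and psbI they overlap.

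Neighbouring plastid genes that are known to be transcribed together are taken group by group. In the wild type the psbD, psbC and psbZ genes had differences of 0.82 to 1.35, and the 4 genes psbE, psbF, psbL and psbJ had 0.49 to 1.16, with ATP arrays above buffer arrays for all 7. The ndhC, ndhK and ndhJ genes had differences of 0.68 to 1.74, again with no overlap. In the group from ndhH to ndhD, which includes psaC and the dim ndhH probe set, the 7 genes had differences of 0.36 to 1.5. The group of rpoA and 6 ribosomal protein genes from rps19 to rpl36 had a median of 0.06 and a range from -0.05 to 0.35, and all 7 overlapped.

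Differences varied within further groups too. In the group of accD, psaI, ycf4, cemA and petA the differences ran from 0.18 at accD to 1.4 at ycf4, and in that of rpoB, rpoC1 and rpoC2 from 0.08, at the dim rpoB probe set, to 0.96. The genes from rps2 to atpA spanned 0.19 to 1.06. Each probe set has its own response to RNA, so the sizes within a group are given as they stand.

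**Figure D4:**
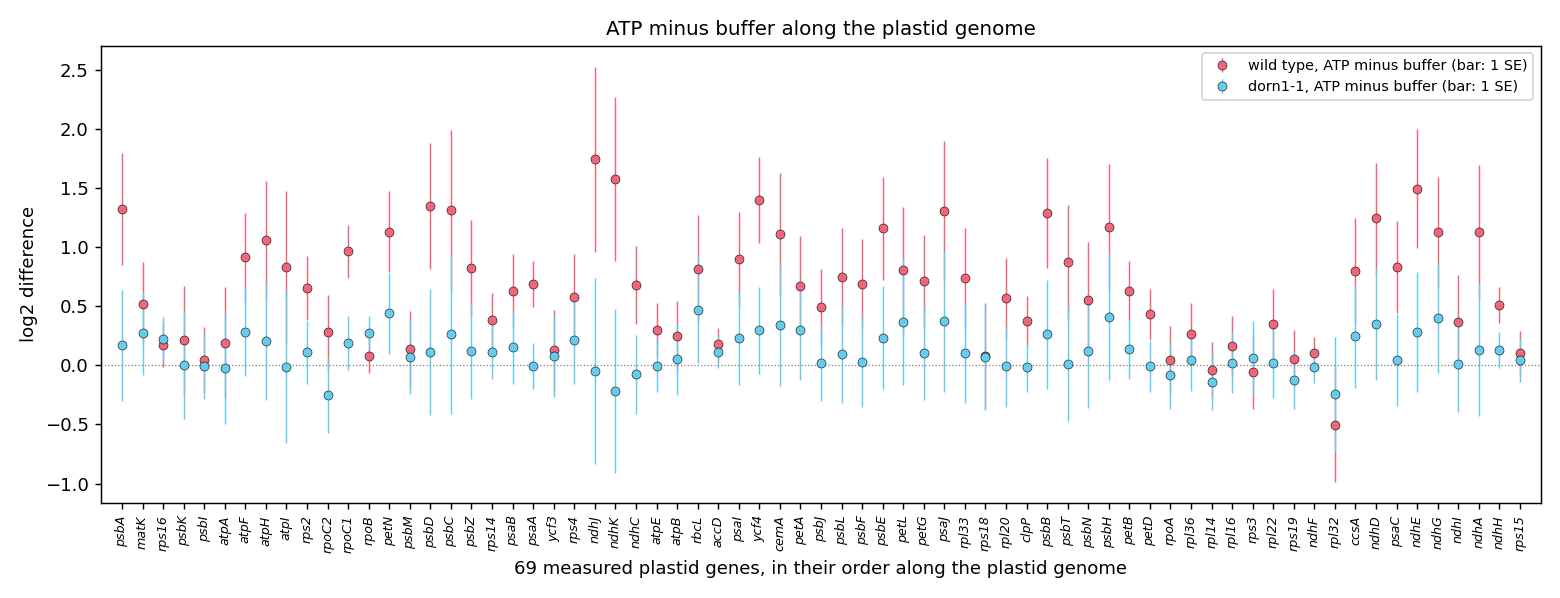
Log2 difference, ATP minus buffer, of the 69 measured plastid genes in their order along the plastid genome, for the wild type and dorn1-1, with bars of 1 SE. The wild-type points are highest at ndhJ (1.74), ndhK (1.58) and ndhE (1.5) and between -0.05 and 0.35 from rpl14 to rps19, and rpl32 is lowest (-0.50).

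The mitochondrial probe sets were divided between higher and lower means in wild-type ATP, 12 against 11. The highest difference was that of ccb206, which RefSeq names ccmB and which encodes a membrane subunit for cytochrome c maturation. It stood at 4.50, 4.45 and 4.71 in wild-type buffer and at 5.08, 5.02 and 5.08 in ATP. The groups did not overlap, and the difference was 0.50 ± 0.16 (SE, n = 3 each, limma adjusted p = 0.121). Another gene of the same pathway, ccb382 (ccmFN1 in RefSeq), differed by -0.25 ± 0.16.

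The catalytic core of cytochrome c oxidase, the last complex of the respiratory chain, includes cox1 and cox2. The cox1 values were 8.77, 8.66 and 9.02 in wild-type buffer and 9.31, 9.03 and 9.11 in ATP, with groups apart by the gap between buffer replicate 3 and ATP replicate 2. The difference was 0.33 ± 0.15 (SE, n = 3 each, limma adjusted p = 0.224) for cox1, and 0.22 ± 0.17 for cox2 with overlapping groups.

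The 15 probe sets of complex I, the entry point of the respiratory chain, had a median of -0.0079 and none had groups apart. Single genes ran from -0.35 ± 0.17 for nad2 to 0.28 ± 0.14 for nad4L (SE, n = 3 each), and nad9 stood at 0.09 ± 0.19. The 7 nad1 probe sets disagreed, with differences from -0.72 to 0.41. The maturase gene matR differed by -0.24 ± 0.23. The orfX gene, which RefSeq names mttB, encodes a protein translocase subunit and differed by -0.10 ± 0.15.

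Plastid and mitochondrial transcripts were then compared within each array. The plastid mean minus the mitochondrial mean, relative to wild-type buffer, was 0.06, 0.24 and -0.29 in wild-type buffer and 0.78, 0.43 and 0.64 in wild-type ATP. It was 1.00, -1.01 and -0.37 in dorn1-1 buffer and 0.25, -0.54 and 0.08 in dorn1-1 ATP. The wild-type groups were apart and the dorn1-1 groups overlapped, with the widest range in dorn1-1 buffer.

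The photosystem mean minus the mean of the other plastid genes was -0.13, 0.13 and 0.0059 in wild-type buffer and 0.28, 0.19 and 0.28 in wild-type ATP on the same relative scale. It was 0.20, -0.08 and 0.18 in dorn1-1 buffer and 0.28, -0.14 and 0.24 in dorn1-1 ATP. Photosystem genes thus stood higher than other plastid genes in all 3 wild-type ATP arrays by more than in any wild-type buffer array. The medians for the wild-type response were 0.83 for photosystem and 0.52 for other plastid genes, and the class of other genes held both the NDH genes at 1.13 and the ribosomal protein genes at 0.17.

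In dorn1-1 the same comparison of ATP with buffer gave small differences. Each SE equals that of the wild-type response, because all 4 groups share the spread. The median standard deviation of the plastid probe sets was 0.75 in dorn1-1 buffer and 0.28 in wild-type buffer. The shared SE thus does not show the wider spread of dorn1-1 buffer. The plastid median was 0.10, with 52 of 69 genes higher in ATP against 56.1% of all probe sets, and the mitochondrial median was 0.06. No member passed, as no probe set of the 22746 did (0% by limma), and no member had an unadjusted p under 0.05, where 2.3% of all probe sets did. No member had ATP arrays all above or all below the buffer arrays, against 3.71% and 1.8% of all probe sets. Beside these, 9 of the 10 nuclear photosynthesis genes had higher means in ATP, with a median of 0.57 and none past the test. This median uses the dorn1-1 buffer arrays, over which the mean of that list spread even more widely than the plastid mean.

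The psbA values in dorn1-1 were 10.79, 8.78 and 9.66 in buffer and 10.60, 9.25 and 9.88 in ATP, a difference of 0.17 ± 0.47 (SE, n = 3 each). For rpoC1 they were 8.85, 8.30 and 7.86 in buffer and 8.71, 8.27 and 8.61 in ATP, a difference of 0.19 ± 0.23. In both genes buffer replicate 1 was the highest of the 6 arrays. The largest dorn1-1 difference among the members was that of rbcL, 0.47 ± 0.45, with 9.97, 7.68 and 8.26 in buffer and 9.19, 8.89 and 9.24 in ATP. The sign of the plastid median rests on the dorn1-1 buffer arrays.

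Without dorn1-1 buffer replicate 1 the plastid median of the dorn1-1 comparison was 0.49, and all 69 plastid genes were higher in ATP, against 49% of all probe sets. At an unadjusted p under 0.05 there were then 26 plastid members, all higher, against 11.1% of all probe sets, and none passed by limma. For 27 plastid genes the ATP arrays lay above the 2 buffer arrays left, against 13.1% of all. The differences were 1.14 for rbcL, 0.69 for psbA and 0.45 for rpoC1. Without replicate 2 the plastid median was -0.15, 10 of the 69 genes were higher, against 58.8% of all probe sets, and no plastid member had an unadjusted p under 0.05. The rbcL difference was then -0.0095 and that of psbA was -0.31. The mitochondrial count higher in ATP moved the other way, from 8 of 23 without replicate 1 to 21 of 23 without replicate 2.

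The difference between the responses, dorn1-1 minus wild type, asked whether ATP acted on organelle transcripts differently in the mutant. Its plastid median was -0.49, with 65 of 69 genes below 0 and 4 above (59.1% of all probe sets were above), and its mitochondrial median was 0.02. No member passed, where 0.00879% of all probe sets did, and the lowest adjusted p of a member was 0.712 by limma. At an unadjusted p under 0.05 there were 2 members, psaA at -0.70 ± 0.27 and rpoC1 at -0.78 ± 0.32 (SE), against 6.97% of all probe sets. A response larger in the wild type than in dorn1-1 was therefore not shown for any member. The 10 nuclear photosynthesis genes were all below 0 too, with a median of -0.66 and none past the test. Their mean relative to wild-type buffer was 1.63, -1.24 and 0.04 in the dorn1-1 buffer arrays, so this median depends on those arrays as well. It is not given without single arrays. Without dorn1-1 buffer replicate 1 the plastid median was -0.08, 26 of 69 genes were above 0, against 55.2% of all probe sets, and no plastid member had an unadjusted p under 0.05. The values of psaA and rpoC1 were then -0.51 and -0.52. Without replicate 2 the median was -0.79, 3 of 69 were above 0, against 60.6%, and 17 plastid members, all below 0, had an unadjusted p under 0.05, against 11.7%.

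In buffer, dorn1-1 was compared with the wild type without ATP. The plastid median was 0.08, and it was -0.35 without dorn1-1 buffer replicate 1 and 0.37 without replicate 2. The mitochondrial median was 0.28, between 0.18 and 0.38 when any single array was left out, and 18 of the 23 probe sets were higher in dorn1-1 against 47.2% of all probe sets. No member passed, where 0.0659% of all probe sets did. At an unadjusted p under 0.05 there were 10 mitochondrial members, 8 higher and 2 lower in dorn1-1, and no plastid member, against 12.9% of all probe sets (6.25% higher, 6.66% lower). The groups were apart with dorn1-1 above for 8 of 23 mitochondrial and 2 of 69 plastid probe sets, against 8.19% of all, and below for 1 mitochondrial probe set, against 11.1%. The median of the 10 nuclear photosynthesis genes was 0.0172, and 5 of them were higher in dorn1-1, with a wide spread over the dorn1-1 buffer arrays.

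The dorn1-1 buffer arrays moved these counts as well. Without replicate 1, 7 of the 69 plastid genes were higher in dorn1-1, and without replicate 2, 62 were, against 48.2% and 45.9% of all probe sets. At an unadjusted p under 0.05 there were 16 mitochondrial members without replicate 1 (14 higher), against 17.1% of all, and 3 without replicate 2 (2 higher), against 9.56%. A nad1 probe set passed without replicate 1 (limma adjusted p = 0.0445), where 1.38% of all probe sets did. The mitochondrial probe sets with higher means in dorn1-1 numbered 19 without replicate 1 and 13 without replicate 2.

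Of the 10 members with an unadjusted p under 0.05, 9 report subunits of complex I or cytochrome c oxidase, and the other is ccb206. Most of the 23 mitochondrial probe sets belong to these classes, 15 to complex I and 2 to cytochrome c oxidase, so this count does not set them apart. The complex I gene nad6 stood at 5.74, 6.16 and 6.30 in wild-type buffer and at 6.38, 7.52 and 6.54 in dorn1-1 buffer, a difference of 0.74 ± 0.29 (SE, n = 3 each, limma adjusted p = 0.321). Replicate 2 was the highest dorn1-1 array, and the gap between the groups was small. Without dorn1-1 buffer replicate 2 the nad6 difference was 0.39. The cox2 values were 5.94, 6.16 and 6.29 in the wild type and 6.30, 7.0 and 6.40 in dorn1-1, a difference of 0.44 ± 0.17 (limma adjusted p = 0.32), again with replicate 2 highest, and it was 0.22 without that array.

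The lowest adjusted p of a member in this comparison was that of nad7, another complex I gene, in the opposite direction. It stood at 5.07, 4.91 and 4.73 in wild-type buffer and at 4.31, 4.51 and 4.03 in dorn1-1 buffer, and every dorn1-1 array lay below every wild-type array. The difference was -0.62 ± 0.15 (SE, n = 3 each, limma adjusted p = 0.16), and -0.64 and -0.74 without dorn1-1 buffer replicate 1 and replicate 2. The 7 nad1 probe sets again disagreed, with genotype differences from -0.08 to 0.89.

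**Figure D5:**
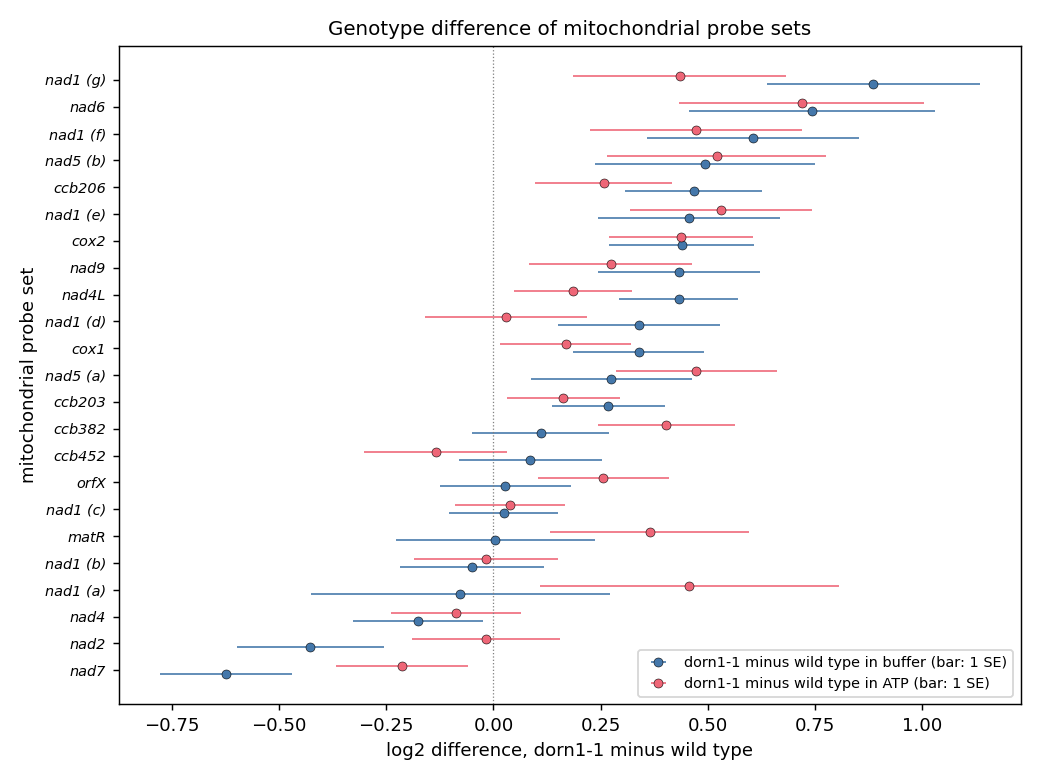
Log2 difference, dorn1-1 minus wild type, of the 23 mitochondrial probe sets in buffer and in ATP, with bars of 1 SE, ordered by the difference in buffer. Letters mark the several probe sets of nad1 and nad5. In each treatment 18 of the 23 lie above 0, and nad7 lies lowest, at -0.62 in buffer and -0.21 in ATP.

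Under ATP, plastid and mitochondrial transcripts stood on opposite sides when dorn1-1 was compared with the wild type. The plastid median was -0.42, with 67 of 69 genes lower in dorn1-1, and the mitochondrial median was 0.26, with 18 of 23 probe sets higher. The plastid median was -0.24 without dorn1-1 ATP replicate 2 and -0.26 without wild-type ATP replicate 1, and the mitochondrial median was 0.15 without wild-type ATP replicate 2. A log2 difference above 0 was found for 52.6% of all probe sets. Beside the plastid genes, all 10 nuclear photosynthesis genes were lower in dorn1-1, with a median of -0.68 and none past the test, and so were the greening genes CHLM and PORB, with a median of -0.59. No member passed, where 6.68% of all probe sets did, so the share among members was below that background. At an unadjusted p under 0.05 there were 5 mitochondrial members, all higher in dorn1-1, and 1 plastid member, ycf4, which was lower, against 21.7% of all probe sets (14.1% higher, 7.63% lower). This comparison and the wild-type response share the wild-type ATP arrays, and those of genotype in buffer and ATP response in dorn1-1 share the dorn1-1 buffer arrays.

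Among plastid genes, dorn1-1 arrays lay below wild-type arrays in ATP for 4 of 69, against 9.89% of all probe sets. They were rbcL, ndhK, ndhC and rps19. For rbcL the wild-type values of 9.61, 9.36 and 9.84 stood above 9.19, 8.89 and 9.24 in dorn1-1, a difference of -0.50 ± 0.45 (SE, n = 3 each, limma adjusted p = 0.576). The ycf4 gene, with 8.48, 7.87 and 8.31 in the wild type and 8.05, 6.76 and 7.28 in dorn1-1, differed by -0.85 ± 0.36 (adjusted p = 0.197), and its groups overlapped.

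Among mitochondrial probe sets, dorn1-1 arrays lay above wild-type arrays in ATP for 6 of 23, against 17.1% of all. For cox2 the values were 6.37, 6.25 and 6.42 in the wild type and 6.73, 6.90 and 6.72 in dorn1-1, a difference of 0.44 ± 0.17 (SE, n = 3 each, limma adjusted p = 0.152). The spread within both groups was small here. For ccb206 the wild-type values of 5.08, 5.02 and 5.08 stood below 5.31, 5.30 and 5.33 in dorn1-1, a difference of 0.26 ± 0.16 (adjusted p = 0.39).

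Nuclear genes with organelle roles were set beside the members. In the wild-type response all 10 nuclear photosynthesis genes had higher means in ATP, with a median of 1.31 and none past the test. Of the 14 greening names, for chlorophyll synthesis and early light responses, CHLM and PORB were matched, and they differed by 1.03 ± 0.40 and 0.95 ± 0.73 (SE). Of 20 names for mitochondrial transcription and respiration, 6 were matched, with a median of -0.07 in the wild-type response. In ATP all 6 were higher in dorn1-1 than in the wild type, with a median of 0.30 and none past the test, as were most mitochondrial members. None of the 36 names for nuclear factors of plastid transcription was measured on a probe set with 1 listed gene. The root markers EXPA7, EXPA18 and XTH18 differed by -0.44, -0.91 and 0.82 in the wild-type response, and none passed. In ATP, XTH18, a cell wall enzyme of roots, differed by -0.71 between dorn1-1 and the wild type and passed (limma adjusted p = 0.0384).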

How the data were processed

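The authors deposited log2 values made with RMA in affy, per the submitters' processing notes, and neither versions nor the genome build are given in the sources used here. RMA makes array distributions alike, so a shift shared by most transcripts would not show, and it compresses differences near background. Array medians lay between 6.07 and 6.17. The files give no signal over background, and the number of arrays (3 in each group) limits the precision.

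Control probe sets (64) were dropped. The other 22746 entered 1 limma model (version 3.58.1, under R 4.3.3) holding a mean for each of the 4 groups. Moderation was by plain eBayes, and p-values were adjusted over all probe sets of a contrast by the Benjamini-Hochberg method, with a threshold of 0.05. Groups came from the titles. Members were read from that fit, and medians over members have no test. The fit was tested on simulated data. Plots were made in Python 3.11.15 (matplotlib 3.10.9).

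The gene of a member came from the platform annotation and the RefSeq table of TAIR10.1. RefSeq matched 69 members by gene ID and 23 by name. The annotation lists 1 gene for 13513 probe sets and several for 503, and 8730 tested probe sets are unlisted. Probe sets that list an organelle gene with another gene (20) are not members. Named genes were the highest and lowest of each class in the wild-type response and a list chosen by role, of which 4 genes had no member probe set, and a gene with several probe sets was named by the one with the highest mean. Genes beyond these, such as ndhK, ndhE, nad6, nad7 and rps3, were chosen after their values were seen. The members and gene lists were chosen with earlier results of these data known. Promoter and protein sequences were not used here. The mutated receptor gene is not reported here. Alternatives were other scalings, filters, moderation, weights per array, a replicate block, fits of only the groups compared, other member rules and omission of arrays.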

Additional observations from a re-analysis of the deposited data

How the results depend on the processing

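Of 615 values of the 25 results over members under the alternatives, 598 were labelled as close to the value reported. For a median, close meant a change smaller than the standard deviation between replicates, a wide limit that lets a sign turn. With 1 array left out, the plastid median ran from -0.15 to 0.49 in the dorn1-1 response. For dorn1-1 against the wild type in buffer it ran from -0.35 to 0.37. Of 693 values for the 35 named genes, 646 kept their direction and side of the threshold. The numbers of members that passed in the wild-type response were 31 with array weights (28 plastid, 3 mitochondrial, 27.3% of all probe sets), 21 with only the 2 groups compared in the fit (11% of all), 2 with the replicate number as a block (ycf4 and rpoC1, 1.97% of all), 17 without dorn1-1 buffer replicates 1 and 2 (chosen after seeing the data), and 0 to 17 when 1 array was left out. For dorn1-1 against the wild type in ATP they were 3 with array weights (13.5% of all probe sets), 1 with the replicate block (7.56%), 2 without dorn1-1 buffer replicates 1 and 2 (10.7%), and 0 to 1 with 1 array left out (1 without dorn1-1 buffer replicate 1, at 11.6%, or replicate 2, at 7.85%), so the share among members stayed below that of all probe sets. In buffer they were 9 with array weights (11.3% of all) and 0 to 1 with 1 array left out (1 without dorn1-1 buffer replicate 1, at 1.38%). Where fewer arrays enter the fit, the shared spread is set by those left, and for the other settings the cause was not tested. The weight of dorn1-1 buffer replicate 1 was 0.261, the lowest of the 12.

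With 1 array left out, the mitochondrial median of the dorn1-1 response ran from -0.11 to 0.23. The plastid minus the mitochondrial median ran from -0.38 to 0.61 in the dorn1-1 response and from -0.96 to 0.05 in the difference between responses. Between the genotypes in buffer it ran from -0.73 to 0.19. Photosystem minus other plastid genes ran from -0.0873 to 0.20 in the dorn1-1 response and from -0.44 to -0.14 in the difference between responses. In the wild-type response the plastid median stayed between 0.49 and 0.80 and that of photosystem minus other plastid genes between 0.21 and 0.45. With array weights the wild-type differences of orfX and psbI turned to 0.0144 and -0.24. With 1 array left out, the range was -0.0902 to 0.23 for nad9, -0.21 to 0.24 for rpoA, -0.11 to 0.32 for ycf3, -0.23 to 0.32 for psbI and -0.34 to 0.54 for atpA.

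The replicate numbers were not taken to pair the arrays. Over 18 same-numbered pairs, the correlation of deviations from the group means ran from -0.28 to 0.56 and was over 0.1 in 8. As a hint from the data, it was 0.48 and 0.56 for replicates 1 and 2 of dorn1-1 buffer and ATP, and the plastid mean was highest in replicate 1 and lowest in replicate 2 in every group but wild-type buffer. A rule by locus names alone gave no value, since the annotation lists organelle genes by symbol, and fits of only 2 groups give none for the difference in response.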

Other observations

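Probe sets that list an organelle gene together with another gene were kept out of the members, and their values are given here. The 8 probe sets of plastid genes listed under more than 1 gene ID (rps12, rpl2, rpl23, ycf2, ndhB, rps7 and ycf1) all had higher means in wild-type ATP, with differences of 0.07 to 0.77, a median of 0.24 and none past the limma test (1 at an unadjusted p under 0.05). In dorn1-1 their median was 0.05. A probe set that lists the mitochondrial genes rps3 and rpl16 differed by -0.25 in the wild-type response. Between dorn1-1 and the wild type in ATP it differed by 0.16, and it passed in neither. The 11 probe sets that pair a mitochondrial gene with a copy on chromosome 2, among them those of cob, atp1, atp9 and cox3, had a median of -0.10 in the wild-type response. In buffer 10 of the 11 were higher in dorn1-1 than in the wild type, with a median of 0.16. In ATP all 11 were higher in dorn1-1, by 0.13 to 0.68 with a median of 0.39. None of the 11 passed the limma test in either treatment. At an unadjusted p under 0.05 there were 2 in buffer and 6 in ATP, against 12.9% and 21.7% of all probe sets. These probe sets cannot tell the organelle transcript from that of the nuclear copy.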
